A study of Homo sapiens with 60 samples.

Results

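The endoplasmic reticulum (ER) folds, glycosylates and inspects the proteins a cell secretes or places in its membranes, and 34 genes of that machinery are described here in SW1783 cells, an established human astrocytoma line. The genes were taken by name: general chaperones, lectin chaperones, J-domain co-chaperones, disulfide and proline isomerases, components of ER-associated degradation (ERAD), the stress sensors with their effector XBP1, and translocation factors. All 34 were found among the 60675 genes of the deposited table, and all 34 passed the filter on low counts that 17516 genes passed. They were taken by function, with earlier results of these data known.

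Cells had been treated for 24 h with a water extract at 20, 100 or 500 µg/mL (low, medium and high) or with 0.1% DMSO as vehicle. The extracts were Cnidii Rhizoma (Cnidium below), Rehmanniae Radix Preparata (Rehmannia), Cinnamomi Cortex (Cinnamon), Astragali Radix (Astragalus), Angelicae Gigantis Radix (Angelica), Paeoniae Radix (Paeonia), and the mixtures Sagunja-tang (Sagunja) and Samul-tang (Samul). Samul-tang is traditionally prepared from Angelica, Cnidium, Paeonia and prepared Rehmannia, and Sagunja-tang from ginseng, Atractylodes, Poria and licorice. There were 3 libraries per dose for Cnidium, Rehmannia, Cinnamon, Astragalus and Sagunja, 2 for Samul, 1 for Angelica and for Paeonia, and 3 for the vehicle, 60 in all. The 24 extract groups and the vehicle make 25 groups of 1 cell line, and no label says that replicates were separate cultures.

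When unfolded proteins accumulate, 3 sensors in the ER membrane, ATF6, IRE1 (gene ERN1) and PERK (gene EIF2AK3), start the unfolded protein response. ATF6 is cut to release a transcription factor, IRE1 splices the XBP1 mRNA, and PERK slows translation while favouring that of ATF4. ATF6 and XBP1 activate genes of chaperones and ERAD factors, and the chaperone HSPA5 (BiP, also GRP78) is the usual readout of the response. Many of these promoters hold an ER stress response element (ERSE), in which CCAAT and CCACG stand 9 bases apart, or the shorter ERSE-II, in which ATTGG and CCACG stand 1 base apart.

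The promoters of the genes on which the results turn show where these elements lie. The stretches are RefSeq sequence of build GRCh38.p14, each 140 bases long and written on the gene's own strand from 5′ to 3′, with the 2 ends of a matched element in capitals. They are HSPA5 at chr9:125241344-125241483 (minus strand), HERPUD1 at chr16:56932002-56932141 (plus), HSP90B1 at chr12:103930270-103930409 (plus), XBP1 at chr22:28800570-28800709 (minus) and DNAJB9 at chr7:108569734-108569873 (plus).
HSPA5: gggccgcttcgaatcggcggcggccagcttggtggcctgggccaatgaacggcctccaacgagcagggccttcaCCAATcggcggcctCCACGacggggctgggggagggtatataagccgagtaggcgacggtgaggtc
HERPUD1: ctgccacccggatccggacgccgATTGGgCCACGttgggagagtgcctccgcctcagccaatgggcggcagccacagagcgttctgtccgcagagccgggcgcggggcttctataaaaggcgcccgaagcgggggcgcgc
HSP90B1: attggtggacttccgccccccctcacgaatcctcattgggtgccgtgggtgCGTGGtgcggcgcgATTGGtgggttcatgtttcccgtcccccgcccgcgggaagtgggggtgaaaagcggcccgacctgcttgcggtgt
XBP1: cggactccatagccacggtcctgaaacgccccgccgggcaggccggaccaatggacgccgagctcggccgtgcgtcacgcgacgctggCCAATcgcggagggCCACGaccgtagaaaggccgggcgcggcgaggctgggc
DNAJB9: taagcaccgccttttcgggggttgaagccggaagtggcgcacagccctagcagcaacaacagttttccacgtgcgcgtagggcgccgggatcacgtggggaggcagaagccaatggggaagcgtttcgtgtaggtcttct

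Both strands of the 250 bases before each RefSeq start were searched for exact matches only, so variant forms of an element were not counted. The matched ERSE of HSPA5 lies 66 to 48 bases upstream of the start and that of XBP1 52 to 34 bases upstream. HSP90B1 holds an ERSE on the reverse strand at 89 to 71 bases and another at 194 to 176 bases. HERPUD1 holds an ERSE-II at 117 to 107 bases upstream, and DNAJB9 had no match to either. Of the 31 members with a promoter in the table, 7 held an ERSE (22.6%: PDIA6, CANX, HSPA5, HSP90B1, CALR, XBP1 and CRELD2), against 25 of 27305 genes with a promoter (0.0916%). An ERSE-II was found in 3 members (9.68%: HYOU1, HERPUD1 and SDF2L1), against 18 of all genes (0.0659%). The core of the XBP1 site, TGACGTGG, was in 3 members (9.68%: DNAJC10, TXNDC5 and HYOU1), against 213 of all genes (0.78%). These matches describe the letters of the window only.

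In GENCODE 29 on GRCh38, HSPA5 (ENSG00000044574) spans chr9:125234853-125241330 on the minus strand, HERPUD1 (ENSG00000051108) chr16:56932048-56944863 on the plus strand, HSP90B1 (ENSG00000166598) chr12:103930107-103953645 (plus), DNAJB9 (ENSG00000128590) chr7:108569568-108574850 (plus) and XBP1 (ENSG00000100219) chr22:28794555-28800597 (minus). All 5 are protein-coding. The stretch shown for HSPA5 lies outside the gene as GENCODE bounds it, while those of HERPUD1 and XBP1 overlap its upstream end and those of HSP90B1 and DNAJB9 lie within it, since GENCODE includes transcripts that start further upstream.

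Library totals ran between 20604792 and 29609799 expected counts. Levels are given in CPM, a gene's share of its library's counts on a common scale, adjusted by TMM factors of 0.936 to 1.028, and differences as log2 fold changes with standard errors from the edgeR quasi-likelihood fit over 54 libraries; a gene is called where its Benjamini-Hochberg adjusted p over all genes tested is under 0.05. Of 7 astrocyte markers, GFAP, S100B, AQP4, ALDH1L1 and SLC1A2 reached at most 0.485 CPM in any library, while SLC1A3 ran between 11.6 and 28.8 CPM and SOX9 between 43.7 and 90.5 CPM. Among mesenchymal and progenitor markers VIM ran between 4670 and 5990 CPM and NES between 4.23 and 9.11 CPM. Library 1 of Sagunja at the low dose stood apart, with a root mean square log2 deviation from its group of 0.723 against a median of 0.153 over libraries. It widens the spread shared by all groups, and counts of members without it are given with their own share of all genes. All sample titles, of vehicle and extracts alike, begin with BatchB, and no label says whether the sets formed by sample codes are batches. Sample codes place vehicle and extracts in different sets (1 for the vehicle, 1 for Angelica and Paeonia, 1 for Cnidium and Rehmannia, 1 for Cinnamon and Astragalus, 1 for Sagunja and Samul), so an extract and its set cannot be told apart in comparisons with vehicle. The labels name DMSO for the vehicle and no solvent for the extract groups, so the solvent cannot be told apart from the extract there either. High and low dose of 1 extract share a set. All comparisons with vehicle share the same 3 vehicle libraries.

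In the vehicle the members spanned a wide range of abundance. Per kilobase of exon, HSPA5 was the most abundant at 892 ± 26.7 CPM per kb (SD, n = 3), ahead of the lectin chaperone CALR at 704 ± 5.07 and the membrane-bound lectin chaperone CANX at 363 ± 1.04. HSP90B1 (GRP94, the HSP90 of the ER) followed at 312 ± 5.59 and P4HB, the archetypal protein disulfide isomerase, at 306 ± 5.13, a gap smaller than their SDs added together. The sensor genes ATF6 at 9.99 and ERN1 at 1.93 CPM per kb lay far below, and DERL3, an ERAD channel protein, was last at 0.308 CPM per kb.

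HSPA5 fell with dose under Cnidium. It had 2443, 2336 and 2321 CPM in the 3 libraries at the high dose of Cnidium, against 3387, 3478 and 3595 CPM in the 3 vehicle libraries. No library of one group reached the range of the other. The fitted difference was -0.56 ± 0.05 log2 (SE; adjusted p = 4.18e-09 by edgeR), a change of -32.1%. Along the doses the means were 3487 ± 104 CPM in the vehicle, 3268 ± 165 at the low, 3018 ± 114 at the medium and 2367 ± 66.7 CPM at the high dose (SD, n = 3 each). Within Cnidium, the high dose was below the low dose by -0.47 ± 0.05 log2 (adjusted p = 1.46e-06 by edgeR).

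HERPUD1, an ER membrane scaffold of ERAD, was the member with the largest change under Cnidium. Its levels were 68.0, 69.0 and 70.5 CPM at the high dose of Cnidium, against 116, 127 and 128 CPM in the vehicle. The groups did not overlap, and the fitted difference of -0.84 ± 0.06 log2 (adjusted p = 7.86e-14 by edgeR) amounts to -43.9%. It was already lower at the low dose of Cnidium, at 92.3 ± 4.11 CPM, and the high dose was below that low dose by -0.42 log2 (adjusted p = 2.46e-05 by edgeR). DNAJB9 (ERdj4), a J-domain co-chaperone of HSPA5, had 31.5, 29.2 and 30.1 CPM at the high dose, against 39.9, 43.1 and 42.9 CPM in the vehicle. That difference, again without overlap, was -0.47 ± 0.08 log2 (adjusted p = 0.000464 by edgeR). HSP90B1 had 1207, 1217 and 1175 CPM at the high dose and 1436, 1473 and 1487 CPM in the vehicle, a difference of -0.29 ± 0.05 log2 (adjusted p = 0.000524 by edgeR).

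Against vehicle the fall under Cnidium covered several roles, but some members lay below the vehicle under most extracts. Every library lay below all vehicle libraries in 23 of 24 extract groups for HERPUD1, 20 for DNAJB9 and 19 for XBP1. For HSPA5 this held in 12. DNAJB9 was already at 33.5 CPM at the low dose of Cnidium, against 42.0 CPM in the vehicle. At the high dose 10 of the 34 members were called lower than vehicle and 0 higher, where 0.502% of all genes tested were called lower and 0.851% higher; without the deviating Sagunja library 16 were called lower (2.85% of all genes). At an unadjusted p under 0.05, 14 members were lower (4.49% of all genes) and 0 higher (6.23%), and DESeq2 also called 10 lower and 0 higher (1.87% of all genes in either direction). Leaving out any 1 of the vehicle or high-dose Cnidium libraries left 4 to 6 called (0.463% to 0.714% of all genes). The others called were the secreted folding factor MANF, with 159, 165 and 156 CPM at the high dose against 210, 209 and 204 CPM in the vehicle (-0.37 ± 0.09 log2, adjusted p = 0.0302 by edgeR), the isomerases PDIA4 (-0.32), PDIA3 (-0.19) and PDIA6 (-0.18), the co-chaperone DNAJB11 (-0.23) and XBP1 (-0.20 ± 0.05 log2, adjusted p = 0.0258). XBP1 had 108, 114 and 115 CPM at the high dose and 130, 130 and 127 CPM in the vehicle, without overlap; counts per gene do not separate its spliced form from its unspliced one. By role, 3 of 7 general chaperones, 2 of 4 J-domain proteins, 3 of 6 isomerases, 1 of 8 ERAD factors, 1 of 3 sensors with XBP1, 0 of 3 lectin-pathway genes and 0 of 3 translocation factors were called. In those last groups CALR and CANX were called lower without the deviating Sagunja library, and no translocation factor was. With all 54 libraries CALR had an unadjusted p under 0.05 (-0.24 ± 0.09 log2, 1617 CPM at the high dose and 1910.5 CPM in the vehicle). DESeq2 too called 0 of the 6 with all 54. All 34 fitted values were negative, with a median of -0.17 log2 where the median over all genes was 0.01. In 27 members every high-dose library lay below every vehicle library, which held for 15.4% of all genes.

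**Figure D1:**
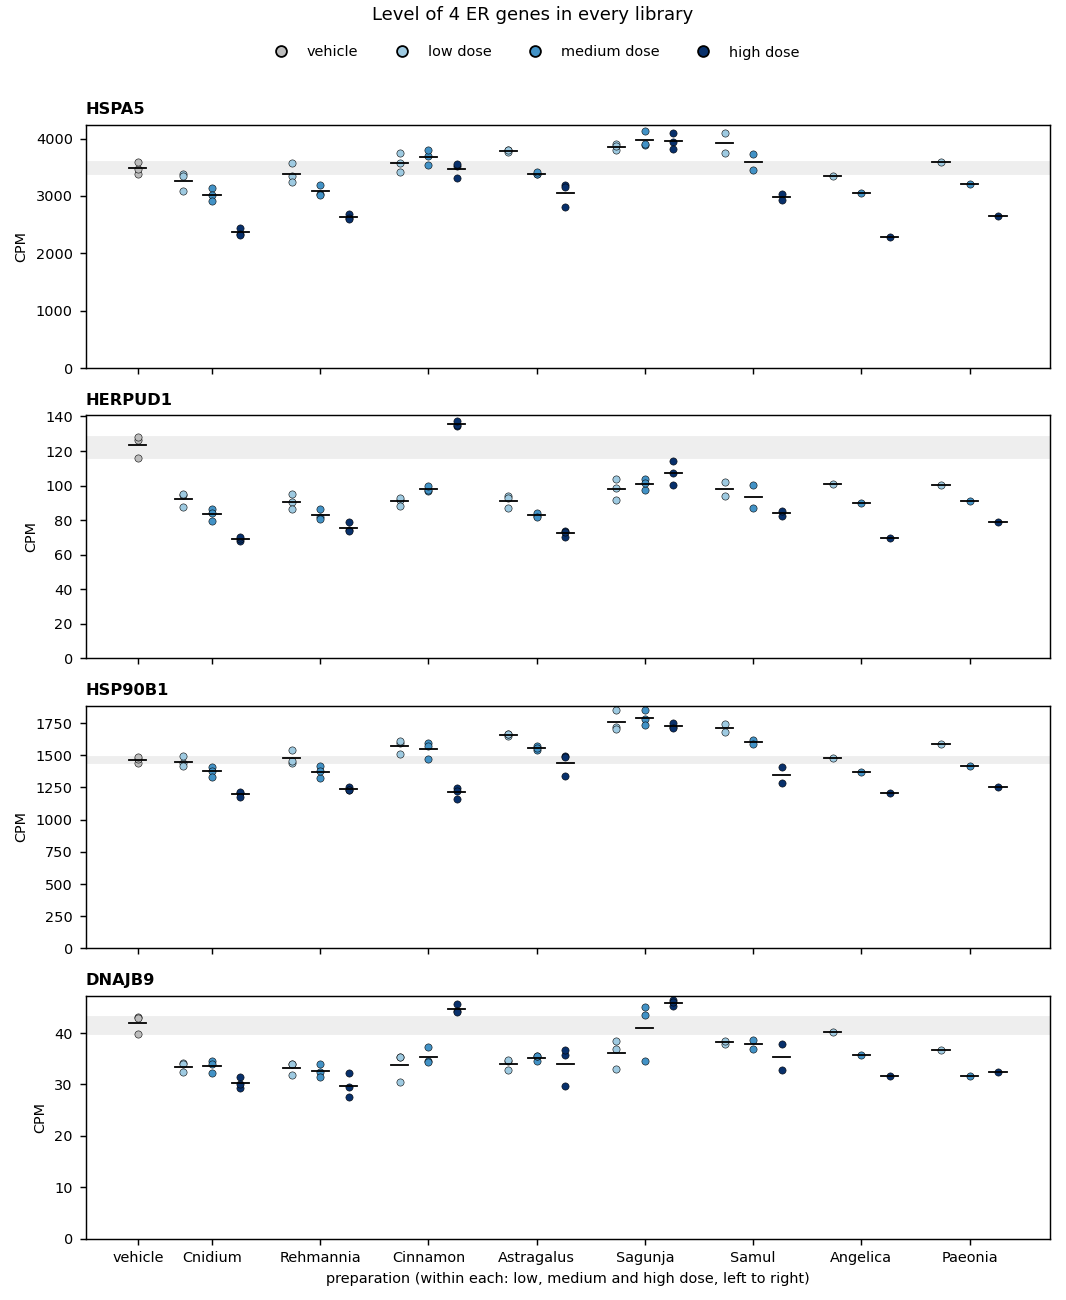
Levels in CPM (vertical axes) of HSPA5, HERPUD1, HSP90B1 and DNAJB9 in every library, with the vehicle and then each preparation at its low, medium and high dose; points are libraries, black lines group means and the grey band the range of the 3 vehicle libraries. HSPA5 at the high dose lies at 2321 to 2443 CPM for Cnidium and at 3824 to 4105 CPM for Sagunja, on either side of the band of 3387 to 3595 CPM.

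Rehmannia gave values close to those of Cnidium. HSPA5 had 2678, 2616 and 2600 CPM at the high dose, against 3387 to 3595 CPM in the vehicle, a difference of -0.41 ± 0.05 log2 (adjusted p = 3.6e-06 by edgeR). HERPUD1 had 79.1, 74.3 and 73.7 CPM at the high dose, against 116 to 128 CPM in the vehicle (-0.71 ± 0.06 log2, adjusted p = 2.11e-11), and DNAJB9 had 29.4, 27.6 and 32.2 CPM, against 39.9 to 43.1 CPM (-0.50 ± 0.08 log2, adjusted p = 5.35e-05). None of these groups overlapped with the vehicle. In all, 9 members were called lower and 0 higher at that dose (0.999% of all genes were called lower and 1.37% higher), or 19 without the deviating library (4.09%); at an unadjusted p under 0.05, 17 were lower (5.45%) and 0 higher (7.26%), and DESeq2 called 11 lower and 0 higher (3.2% of all genes in either direction). Leaving out 1 vehicle or high-dose Rehmannia library left 5 or 6 (1.25% to 1.43% of all genes). They were HERPUD1, DNAJB9, HSPA5, MANF, PDIA4, DNAJB11, HSP90B1, PDIA3 and XBP1. The median over members was -0.17 log2, against 0.00 over all genes, all 34 values were negative, and 26 members did not overlap with the vehicle (16.3% of all genes in that direction).

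Between doses of 1 extract, where the set is shared, fewer genes passed. High against low dose of Cnidium called 3 members lower and 0 higher, namely HSPA5, HERPUD1 and HSP90B1 (-0.27 log2), where 0.0799% of all genes were called lower and 0.148% higher; without the deviating library 11 were called lower (0.464%). For Rehmannia 4 members were called lower and 0 higher, HSPA5 (-0.36), PDIA4 (-0.29), HERPUD1 (-0.26) and HSP90B1 (-0.26 log2), with 0.36% of all genes called lower and 0.445% higher, and 11 without that library (1.79%). At an unadjusted p under 0.05 the counts were 10 lower for Cnidium (2.68% of all genes) and 11 for Rehmannia (4.57%), DESeq2 called 6 lower for Cnidium (0.354% of all genes called) and 7 for Rehmannia (1.17%), and in each of these 0 were higher. For Rehmannia 2 were left without its low-dose library 1 or its high-dose library 2 or 3 (0.423% to 0.537% of all genes). The member median was -0.11 log2 for both extracts, against -0.00 or 0.00 over all genes. Means fell at every step of low, medium and high in 23 members under Cnidium and 22 under Rehmannia, against 21.5% and 22.9% of all genes. The test of the difference between the dose effects of Cnidium and Rehmannia called 0 of 34 members and 0.04% of all genes; 0 members had an unadjusted p under 0.05 (2.81% of all genes), and DESeq2 also called 0 (0.0799%). For HSPA5 that difference was -0.10 ± 0.08 log2 and for HERPUD1 -0.16 ± 0.08 log2.

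Samul, the mixture that traditionally contains both plants, had 2 libraries per dose. HSPA5 had 3031 and 2927 CPM at its high dose and 4102 and 3746 CPM at its low dose, with no overlap. That difference was -0.40 ± 0.07 log2 (adjusted p = 0.000246 by edgeR), and against the vehicle the high dose differed by -0.23 ± 0.06 log2 (adjusted p = 0.0199 by edgeR). HSP90B1 had 1409 and 1282 CPM at the high dose and 1742 and 1680 CPM at the low dose (-0.35 ± 0.06 log2, adjusted p = 0.00039). The mean of HSP90B1 lay above that of the vehicle at the low dose of Samul, where it was called higher, and below it at the high dose, where the difference did not pass. HERPUD1 had 82.6 and 85.3 CPM at the high dose and 116, 127 and 128 CPM in the vehicle (-0.56 ± 0.06 log2, adjusted p = 6.53e-08), but between high and low dose of Samul its difference of -0.22 ± 0.07 log2 did not pass (adjusted p = 0.184 by edgeR).

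For Samul at its high dose, 6 members were called lower than vehicle and 0 higher, against 1.85% of all genes called lower and 2.28% higher: HERPUD1, MANF (161 and 159 CPM, -0.37 ± 0.11 log2), PDIA4 (-0.29), P4HB (-0.28), HSPA5 and DNAJB11 (-0.21). Without the deviating Sagunja library the count was 16 (7.46% of all genes), and without any 1 of the vehicle or high-dose Samul libraries it was 1 to 3 (1.14% to 2.64%). The counts at an unadjusted p under 0.05 were 13 lower (7.7% of all genes) and 0 higher (9.02%), and those of DESeq2 9 lower and 0 higher (5.53% of all genes called). Of high against low dose, 2 members were called lower, HSPA5 and HSP90B1 (0.308% of all genes, with 0.428% called higher), or 9 without that library (0.894%); 9 were lower (3.11%) and 0 higher (3.48%) at an unadjusted p under 0.05, and DESeq2 called 5 lower and 0 higher (0.953%). Without low-dose library 1 of Samul 1 was left (0.248% of all genes), and without its high-dose library 2 also 1 (0.304%). In that comparison 32 of 34 values were negative, with a median of -0.15 log2 against -0.00 over all genes. In 23 members both high-dose libraries lay below both low-dose libraries, as in 19.5% of all genes, with only 2 libraries on each side.

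Under Astragalus the genes called were again HERPUD1, HSPA5, DNAJB9 and HSP90B1. HSPA5 had 2800.4, 3197 and 3163 CPM at the high dose and 3799, 3774 and 3795 CPM at the low dose, without overlap (-0.31 ± 0.05 log2, adjusted p = 0.000831 by edgeR). The low dose lay above all vehicle libraries and the high dose below them. HERPUD1 had 70.2, 73.7 and 72.9 CPM at the high dose and 93.8, 87.1 and 92.7 CPM at the low dose (-0.34 ± 0.06 log2, adjusted p = 0.000622), and against the vehicle the high dose was at -0.77 ± 0.06 log2 (adjusted p = 3.57e-13). The members called at the high dose against vehicle were 3, HERPUD1, DNAJB9 (-0.30) and HSPA5 (-0.19), all lower (2.07% of all genes were called lower and 2.39% higher), and 9 without the deviating library (7.26%). Only 1 was left without vehicle library 2 (2.57% of all genes called), vehicle library 3 (2.7%) or high-dose Astragalus library 1 (5.26%). High against low dose called HERPUD1, HSPA5 and HSP90B1 (-0.21), again 3 lower and 0 higher, with 0.183% of all genes called lower and 0.0971% higher, and the same number without that library (0.659%). A fit of only the high and low dose called 0 members between doses and 0.0819% of all genes. DESeq2 called 4 lower against vehicle (5.16% of all genes) and 3 lower between doses (0.468%), and 0 higher in both.

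**Figure D2:**
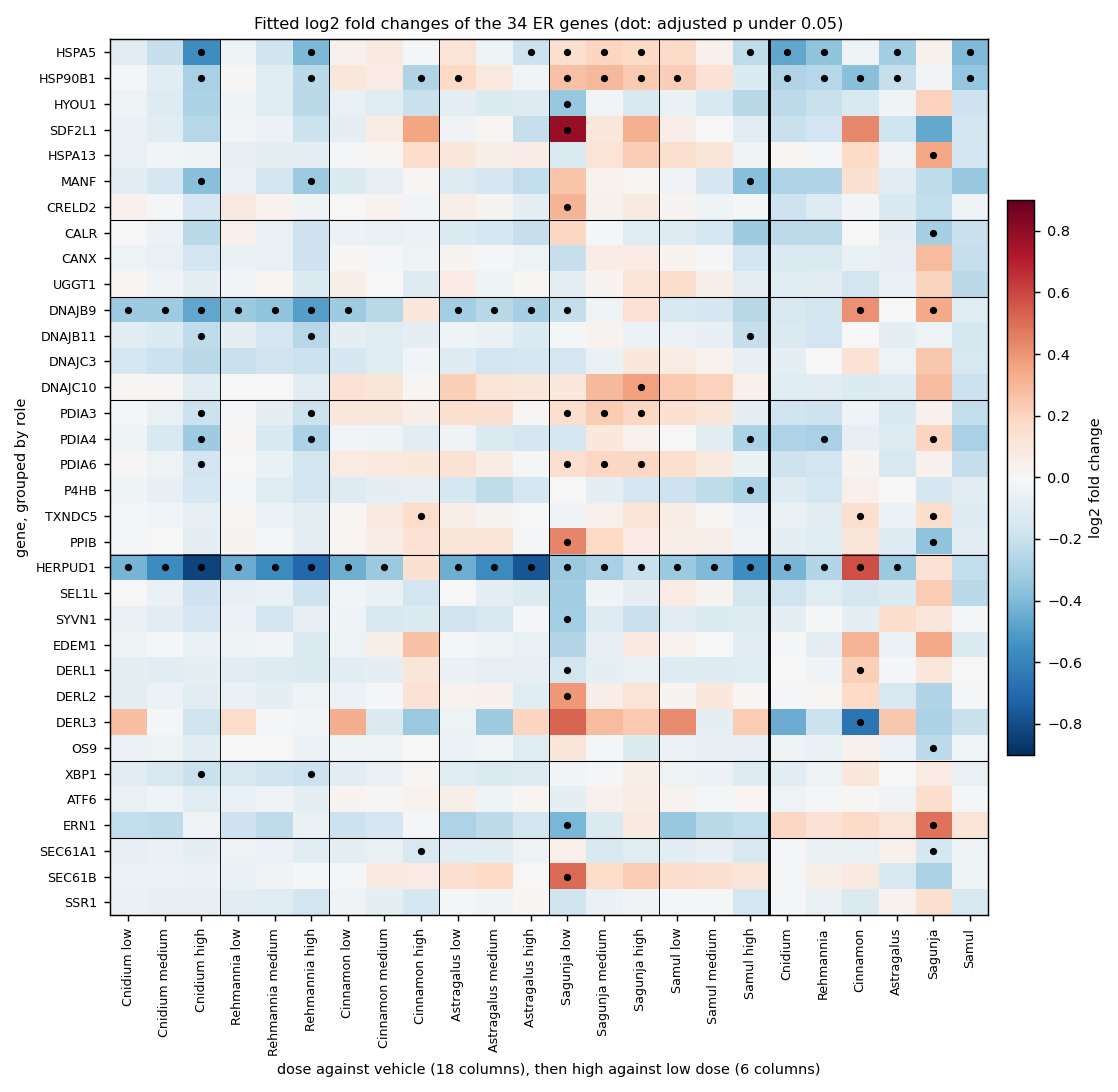
Fitted log2 fold changes (colour) of the 34 members, ordered by role, in 18 comparisons of a dose with vehicle and 6 of high with low dose; a dot marks an adjusted p under 0.05. The row of HERPUD1 is lower and dotted in 17 of the 18 comparisons with vehicle, the exception being the high dose of Cinnamon.

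Among the extracts tested, only Cinnamon had HERPUD1 called higher at the high dose than at the low dose. Its means also rose along the doses of Sagunja, at 97.998, 100.751 and 107.495 CPM, all below the vehicle mean. High against low dose of Sagunja, whose low dose holds the deviating library, did not call HERPUD1, with or without that library. HERPUD1 had 135, 135 and 137 CPM at the high dose of Cinnamon and 91.4, 93.0 and 88.2 CPM at its low dose. The groups were far apart, at 0.58 ± 0.06 log2 (adjusted p = 7.3e-11 by edgeR), or 49.2% higher at the high dose. The medium dose, at 96.9, 97.2 and 99.6 CPM, stayed near the low one and below the vehicle. Against the vehicle libraries at 116 to 128 CPM, all 3 high-dose libraries were higher, but the difference of 0.14 ± 0.06 log2 did not pass (adjusted p = 0.0731 by edgeR), while without the deviating Sagunja library it did, at 0.12 ± 0.05 log2 (adjusted p = 0.0442).

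DNAJB9 moved in the same direction under Cinnamon, with 45.6, 44.3 and 44.1 CPM at the high dose and 30.5, 35.4 and 35.2 CPM at the low dose (0.41 ± 0.08 log2, adjusted p = 7.62e-05 by edgeR). HSP90B1 moved the opposite way: it had 1163, 1249 and 1225 CPM at the high dose, against 1512, 1596 and 1607 CPM at the low dose (-0.37 ± 0.05 log2, adjusted p = 8.48e-08). Neither gene's dose groups overlapped. HSPA5 had 3320, 3519 and 3555 CPM at the high dose of Cinnamon and 3387, 3478 and 3595 CPM in the vehicle, ranges that overlap, with a difference of -0.01 log2 (adjusted p = 0.928 by edgeR). TXNDC5, a thioredoxin-domain isomerase, had 673, 674 and 685 CPM at the high dose and 596, 610.3 and 604 CPM in the vehicle (0.17 ± 0.05 log2, adjusted p = 0.0161).

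In numbers, high against low dose of Cinnamon called 4 members higher (HERPUD1, DNAJB9, the ERAD channel protein DERL1 at 0.22 and TXNDC5 at 0.15 log2) and 2 lower (HSP90B1 and DERL3, at about 1 CPM, by -0.66 ± 0.23 log2). Of all genes 10.3% were called higher and 11.2% lower in that comparison, so the members' count lay near the background. Against vehicle the high dose called 1 member higher, TXNDC5, and 2 lower, HSP90B1 (-0.27) and SEC61A1 (-0.15), the pore-forming subunit of the translocon, where 11.8% of all genes were called higher and 10.9% lower. Without the deviating library these counts were 10 higher and 6 lower between doses (35.9% of all genes called) and 5 higher and 7 lower against vehicle (35.9%). SDF2L1, a partner of ER J-domain proteins, had 78.4, 53.8 and 54.6 CPM at the high dose, and its difference between doses of 0.43 ± 0.22 log2 did not pass (adjusted p = 0.155 by edgeR).

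Cinnamon and Astragalus belong to the same set, and their dose effects were compared directly. The difference, Cinnamon minus Astragalus, was positive and called in 4 members and negative in 0, where 6.73% of all genes were called positive and 7.67% negative; 2 members were negative at an unadjusted p under 0.05 (14% of all genes), and DESeq2 called 6 positive and 1 negative (15.3% of all genes called). It was 0.91 ± 0.08 log2 for HERPUD1 (adjusted p = 9.84e-12 by edgeR), 0.41 ± 0.11 for DNAJB9 (adjusted p = 0.00758), 0.23 ± 0.07 for DERL1 (adjusted p = 0.0123) and 0.26 ± 0.08 for HSPA5 (adjusted p = 0.0136). In either direction the fit over 54 libraries called 14.4% of all genes, so its count of 4 members lay near the background. Without the deviating library 11 members were called positive and 4 negative, HSP90B1 among the negative ones (27.8% of all genes called).

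**Figure D3:**
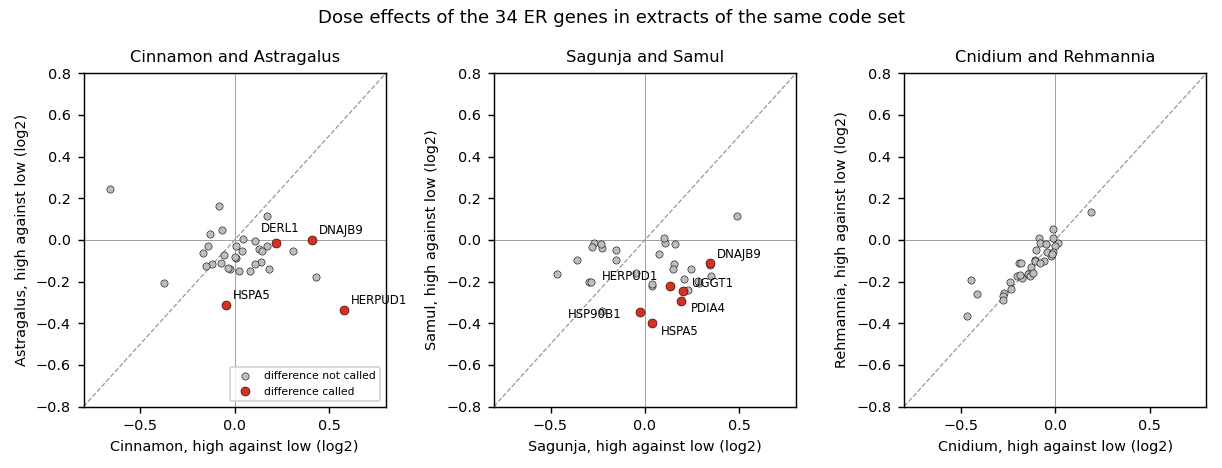
Fitted log2 difference of high against low dose for each of the 34 members, with Cinnamon, Sagunja or Cnidium on the horizontal axis and Astragalus, Samul or Rehmannia on the vertical axis of 3 panels; red points are members whose dose effects differ at an adjusted p under 0.05 and the dashed line marks equal effects. HERPUD1 lies at 0.58 for Cinnamon and -0.34 for Astragalus, and HSPA5 at -0.47 for Cnidium and -0.36 for Rehmannia.

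Under Sagunja several chaperones and isomerases were higher than in the vehicle. HSPA5 had 3942, 4105 and 3824 CPM at the high dose of Sagunja, against 3387, 3478 and 3595 CPM in the vehicle (0.18 ± 0.05 log2, adjusted p = 0.0139 by edgeR), and HSP90B1 had 1723, 1753 and 1711 CPM, against 1436, 1473 and 1487 CPM (0.24 ± 0.05 log2, adjusted p = 0.000364). DNAJC10, a J-domain protein with disulfide reductase activity, had 149, 152 and 153 CPM at the high dose and 116, 120.1 and 115 CPM in the vehicle (0.37 ± 0.10 log2, adjusted p = 0.0098). All libraries of the high dose lay above all vehicle libraries for these 3 genes. PDIA3 and PDIA6 were each higher by 0.19 log2, which makes 5 members called higher, and HERPUD1, at 101, 114 and 107 CPM, was the 1 called lower (-0.20 ± 0.06 log2, adjusted p = 0.00942). Of all genes 8.94% were called higher and 8.11% lower, so the members' count lay near the background. Without the deviating library 7 were called higher and 5 lower, again near the 30.9% of all genes called.

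The low dose of Sagunja depends on that library. With it, 9 members were called higher and 6 lower than vehicle (22.1% of all genes called), and without it 3 higher (DNAJC10, HSP90B1 and PDIA3) and 2 lower (HERPUD1 and P4HB; 11.4% of all genes). SDF2L1 had 149 CPM in library 1 and 50.8 and 52.9 CPM in libraries 2 and 3 of the low dose. MANF had 331, 205 and 204 CPM in the same order and PDIA4 485, 723 and 685 CPM, so library 1 lay on different sides for different members. High against low dose of Sagunja called 5 higher and 4 lower with that library (7.93% and 12.5% of all genes), and without it 2 higher, ERN1 (0.28 ± 0.08 log2) and DNAJB9 (0.29 ± 0.08 log2), and 0 lower (6.49%). A fit of only the groups compared called 0 members at the low dose against vehicle (0% of all genes) and 0 between doses (0.14%). The counts between doses were 25 without low-dose library 2 (39.8% of all genes called) or library 3 (42.8%), and 2, 5 and 2 without high-dose library 1 (9.3%), library 2 (14.4%) or library 3 (10.5%). Against vehicle the low dose gave 25 without its library 3 (39.9%) and 9 without any 1 vehicle library (12.8% to 15.5%). ERN1 had 22.6, 20.8 and 23.1 CPM at the high dose and 10.5, 17.99 and 18.7 CPM at the low dose, and DNAJB9 had 45.2, 46.3 and 46.1 CPM at the high dose and 33.0, 36.9 and 38.5 CPM at the low dose.

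Sagunja and Samul, also of the same set, differed in their dose effects. The difference, Sagunja minus Samul, was positive and called in 6 members and negative in 0, against 1.43% of all genes called positive and 1.46% negative; 0 were negative at an unadjusted p under 0.05 too (12.6% of all genes), and DESeq2 called 9 positive and 0 negative (3.96% of all genes called). A fit of only the 4 groups compared called 0 members and 0.0726% of all genes. It was 0.43 ± 0.08 log2 for HSPA5 (adjusted p = 0.0014 by edgeR), 0.48 ± 0.11 for PDIA4 (adjusted p = 0.00735) and 0.32 ± 0.08 for HSP90B1 (adjusted p = 0.0109), with HERPUD1, DNAJB9 and UGGT1, the folding sensor that reglucosylates unfinished glycoproteins, also called. Without the deviating library 8 members were called positive (1.67% of all genes) and HSPA5 kept a difference of 0.42 ± 0.08 log2 (adjusted p = 0.000237). The count was 18 without low-dose library 2 (16.6% of all genes called) and 20 without low-dose library 3 of Sagunja (22.4%), and 2, 3 and 3 without low-dose library 1 (1.25%), low-dose library 2 (1.12%) and high-dose library 2 of Samul (1.18%). The member median of the difference was 0.25 log2, against -0.02 over all genes.

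Angelica and Paeonia had 1 library per dose, so their values carry no test. HSPA5 was listed at 3347, 3047 and 2281 CPM at the low, medium and high dose of Angelica and at 3587, 3209.5 and 2652 CPM along the same doses of Paeonia. Both single libraries at the high dose lay below all vehicle libraries, whose range was 3387 to 3595 CPM. HERPUD1 was at 69.9 CPM at the high dose of Angelica and 79.2 CPM at that of Paeonia. For Angelica at the high dose 33 of 34 members lay below all 3 vehicle libraries, as did 32.1% of all genes, and for Paeonia 32 of 34, with 33.3% of all genes. A change of at least 1.5-fold on the log2(CPM + 1) scale was reached by 2 members under Angelica (HSPA5 and HERPUD1; 0.651% of all genes) and by 1 under Paeonia (HERPUD1; 1.5% of all genes). The median was -0.20 log2 for both, against 0.01 over all genes.

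The summed level of the 34 members gives the size of the group as a whole, though HSPA5, CANX and CALR make up a large part of it. It was 17802.5 ± 181 CPM in the vehicle (SD, n = 3). Along low, medium and high dose it was 17215.8, 16603.9 and 14882.8 CPM for Cnidium and 17483.8, 16572.3 and 15232.0 CPM for Rehmannia. At the high dose this was -16.4% for Cnidium, -14.4% for Rehmannia, -12.2% for Samul, -7.05% for Astragalus, -2.72% for Cinnamon and 4.52% for Sagunja relative to the vehicle mean, and -18.4% and -16.0% for the single libraries of Angelica and Paeonia. The means of low, medium and high dose fell at every step in 24 members under Samul, 23 under Angelica, 23 under Paeonia, 16 under Astragalus, 10 under Cinnamon and 6 under Sagunja, and rose at every step in 2, 1, 0, 2, 16 and 14 members in the same order; of all genes between 18.2% and 28.6% fell and between 18.65% and 29.97% rose in that way, with 29.97% rising under Cinnamon and 23.7% under Sagunja. The low-dose means of Sagunja include its deviating library, so its counts of falling and rising members depend on that library. Without HSPA5 the sum still differed from the vehicle by -12.6% for Cnidium, -12.0% for Rehmannia and -11.6% for Samul. In bulk RNA a lower level of a transcript per cell and a smaller share of cells that express it cannot be told apart.

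**Figure D4:**
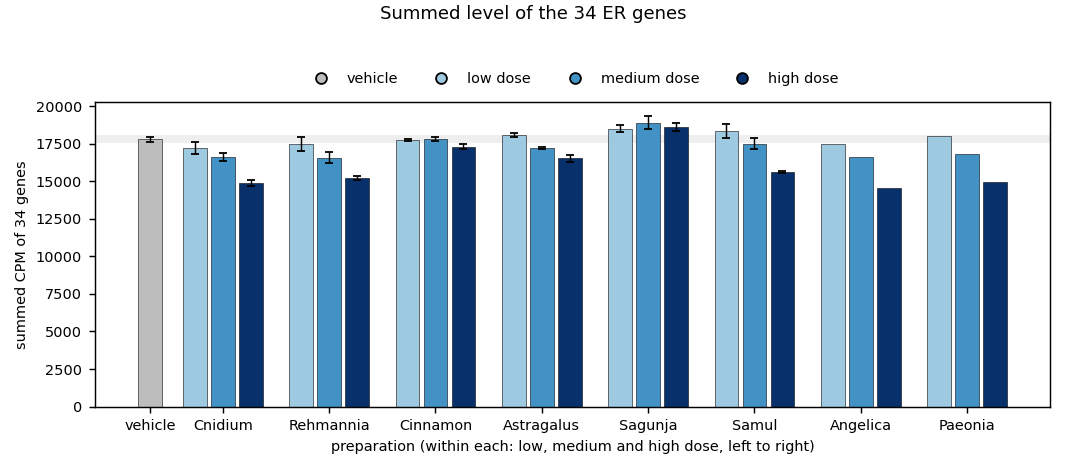
Summed CPM of the 34 members (vertical axis, from 0) in the vehicle and in each preparation at its low, medium and high dose. Bars are means and error bars SDs over libraries, and Angelica and Paeonia have 1 library per bar and no error bar. The bar of the high dose of Cnidium stands at 14882.8 CPM and that of the high dose of Sagunja at 18607.7 CPM, against 17802.5 CPM in the vehicle.

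At the medium and low doses of extracts other than Sagunja at most 3 members passed against vehicle, HERPUD1 and DNAJB9 among them most often. Under Cnidium both genes were called lower at the medium dose (0.297% of all genes called in either direction) and at the low dose (0.383%), and likewise under Rehmannia (0.714% and 0.993%). Cinnamon called HERPUD1 lower at the medium dose (2.29%) and both genes at the low dose (1.06%), and Samul HERPUD1 at the medium (1.75%) and low dose (2.62%), with HSP90B1 higher at the low dose. Astragalus called both lower at the medium (3.94%) and low dose (3.67%), with HSP90B1 higher there as well. Without the deviating Sagunja library the counts were 4 lower at the medium and 2 at the low dose of Cnidium (1.37% and 1.79% of all genes called), 7 and 3 lower under Rehmannia (2.93% and 3.64%), and 2 and 2 lower under Cinnamon (7.43% and 5.45%). In the same fit Astragalus had 9 lower at the medium dose (13.9%) and 5 lower and 3 higher at the low dose (14.1%), and Samul 5 lower and 1 higher at the medium (11.3%) and 5 lower and 4 higher at the low dose (13.2%). HERPUD1 averaged 92.3 ± 4.11 CPM at the low dose of Cnidium, 90.7 ± 4.39 of Rehmannia, 90.9 ± 2.43 of Cinnamon, 91.2 ± 3.603 of Astragalus, 97.998 ± 5.99 of Sagunja and 97.8 ± 5.77 CPM of Samul, against 123 ± 6.66 CPM in the vehicle, so all 6 means, from 3 sets, lay below the lowest vehicle library at 116 CPM. The single libraries of Angelica and Paeonia had 101 CPM each at the low dose. The medium dose of Sagunja called HSP90B1, PDIA3, HSPA5 and PDIA6 higher and HERPUD1 lower (6.32% of all genes), and without the deviating library 6 were called higher and 3 lower (17.6%).

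Across all 18 comparisons with vehicle, which share the vehicle libraries, HERPUD1 was called lower in 17 and DNAJB9 in 11. HSPA5 was called lower in 4, all at a high dose, and higher in 3, all of Sagunja; without the deviating library it was lower in 6, the medium doses of Cnidium and Rehmannia included, and higher in 3, the low dose of Samul being among them in place of that of Sagunja. HSP90B1 was called lower in 3 and higher in 5, and in the 6 comparisons of high with low dose it was lower in 5 and HSPA5 in 4. In 7 members no comparison with vehicle or between doses was called: CANX, UGGT1, the co-chaperone DNAJC3, the ERAD components SEL1L and EDEM1, the sensor ATF6 and the translocon-associated SSR1. Without the deviating library each of these except ATF6 was called in at least 1 comparison. ATF6 averaged between 72.7 CPM (the low dose of Angelica) and 82.7 CPM (the high dose of Sagunja), with 78.8 CPM in the vehicle. ERN1, the other sensor listed, averaged between 15.7 CPM (the low dose of Sagunja) and 22.2 CPM (its high dose), with 21.0 CPM in the vehicle. It was called lower than vehicle in 1 of the 18 comparisons, at the low dose of Sagunja, and in 6 without the deviating library, which itself lies in that low dose.

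Other genes of the ER and of stress responses were counted in fixed lists that hold none of the 34. The PERK and ATF4 list of 14 genes was called higher in 11 and lower in 0 at the high dose of Cinnamon against vehicle (median 0.54 log2, all genes 0.00). Likewise 11 and 0 were called against its own low dose (median 0.58 log2). The shares of all genes were 11.8% higher and 10.9% lower against vehicle, and 10.3% and 11.2% between doses. DESeq2 gave the same 2 pairs of counts (23.0% and 22.3% of all genes called). Without the deviating Sagunja library they were 11 higher and 1 lower against vehicle (35.9%) and 12 higher and 0 lower between doses (35.9%). TRIB3, a pseudokinase gene induced by ATF4, averaged 41.0 ± 1.78 CPM at the high dose of Cinnamon and 21.0 ± 0.383 CPM in the vehicle (0.96 ± 0.15 log2, adjusted p = 2.87e-06 by edgeR). DDIT3, which encodes the transcription factor CHOP, averaged 63.9 ± 6.31 CPM at that dose and 33.7 ± 1.10 CPM in the vehicle (0.93 ± 0.14 log2, adjusted p = 3.98e-06). ATF4 itself differed by 0.02 ± 0.10 log2 and EIF2AK3 by 0.10 ± 0.14 log2, and neither passed. Under Cnidium the same list had 1 gene higher (DDIT4, 0.50 log2, with 0.851% of all genes) and 1 lower (0.502%). The lower gene was DDIT3 at 21.2 ± 0.758 CPM against 33.7 ± 1.10 CPM in the vehicle (-0.67 ± 0.15 log2, adjusted p = 0.0114 by edgeR). At the high dose Rehmannia called 0 of the 14 (4 lower at an unadjusted p under 0.05, with 5.45% of all genes, and 1 lower by DESeq2). Astragalus called 1 higher and 2 lower (2.39% and 2.07% of all genes) and Samul 0 higher and 2 lower (2.28% and 1.85%). Sagunja called 1 higher and 0 lower (8.94% and 8.11%), near the background. At an unadjusted p under 0.05 Cnidium had 5 lower (4.49% of all genes) and 1 higher (6.23%). Without the deviating library, Cnidium had 3 called lower and 1 higher at the high dose (2.85% and 2.72% of all genes). In the same order Rehmannia had 4 and 0 (4.09% and 3.56%) and Astragalus 4 and 1 (7.26% and 5.43%). Samul had 5 and 0 (7.46% and 5.92%) and Sagunja 2 and 2 (15.8% and 15.2%).

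The other lists set the fall under Cnidium beside further genes of the ER and secretory pathway and beside cytosolic heat shock genes. At the high dose of Cnidium against vehicle, 0 genes were called in the lists of other sensors and proteases (9 genes), translocation (15), N-glycan transfer and trimming (13), other ERAD (19), other oxidoreductases (18), ER to Golgi transport (20), collagen folding (11) and cytosolic heat shock (15). Of these 120 genes 9 had an unadjusted p under 0.05, DESeq2 called 3, and 11 were called without the deviating library. Those 11 held 3 lower genes of N-glycan transfer and trimming and 3 lower of ER to Golgi transport. Other ERAD, other oxidoreductases and collagen folding had 1 lower each, and cytosolic heat shock 1 lower and 1 higher. Without that library 2.85% of all genes were called lower and 2.72% higher. Over all genes 0.502% were called lower and 0.851% higher in that comparison, so 0 of 120 lay near the background. Of all genes 10.7% had an unadjusted p under 0.05, DESeq2 called 1.87%, and 5.57% were called without that library. At the high dose of Cinnamon the counts were 5 higher and 1 lower of the 19 other ERAD genes, 4 higher and 2 lower of the 18 oxidoreductases and 0 higher and 4 lower of the 15 cytosolic heat shock genes, among them HSPB1 (-0.61 ± 0.15 log2) and HSPH1 (-0.30 ± 0.09 log2). These counts stand beside 11.8% of all genes called higher and 10.9% lower in that comparison, and the lists were not tested as sets.

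**Figure D5:**
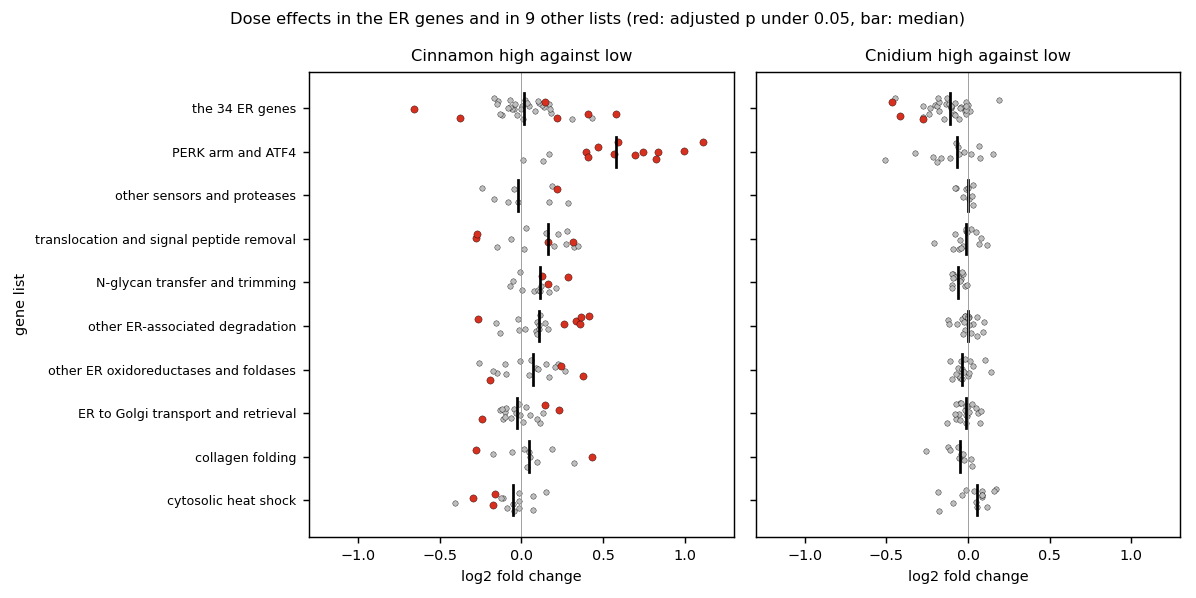
Fitted log2 difference of high against low dose (horizontal axis) for the 34 members and for each other list, in 1 panel for Cinnamon and 1 for Cnidium; points are genes, red where the adjusted p is under 0.05, and bars mark medians. Under Cinnamon the PERK and ATF4 list has a median of 0.58 log2, and under Cnidium the members have a median of -0.11 log2.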

How the data were processed

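Expression was measured by mRNA sequencing of SW1783 cells as 100-base paired-end directional libraries on an MGI instrument, per the labels' protocols. The authors deposited expected counts, estimated per gene with RSEM 1.3.3. The submitters' processing notes also name STAR 2.7.3a, Trim Galore 0.6.5, FastQC 0.11.9 and the human build hg38 (GRCh38). The annotation release was not given in the sources used. The table held 279 columns, of which 60 were used and 219 were not used here. Estimated counts were rounded to whole numbers (90.67% were whole within 1e-6). Gene symbols came from a name table (56558 genes) and positions from GENCODE 29 on GRCh38. Sample labels give the vehicle as 0.1% DMSO and the series description another concentration.

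Genes were filtered with filterByExpr (17516 kept), scaled with TMM, and fitted with edgeR's quasi-likelihood method (edgeR 4.0.16, limma 3.58.1, R 4.3.3) over 54 libraries in 19 groups; the residual degrees of freedom were 35 and the biological variation (BCV) 0.095. P-values were adjusted by Benjamini-Hochberg over all genes, separately for each of 27 comparisons: 18 of a dose with vehicle, 6 of high with low dose, and 3 between dose effects. The p-values measure the spread between these libraries, which may be technical. Angelica and Paeonia, with 1 library per dose, were described as log2(CPM + 1) ratios to the vehicle mean with no test. On simulated data for the high dose of Cnidium against vehicle the fit called 84%, 100% and 100% of genes changed 1.5, 2 and 4-fold, with 5 false calls among 17338 genes; for Samul, with 2 libraries against 3, it called 68%, 98% and 100%, with 7 false calls among 17317 genes. Of genes changed 1.25-fold, 32% were called in both, and most members' differences at the high dose of Cnidium were smaller than that. Alternatives were scaling by library size only, no filter, DESeq2 1.42.0, fits of only the groups compared, a replicate block, each library left out in turn, and a pseudocount of 0.5 for the single libraries. Leaving the Sagunja library out of every comparison was added after seeing the data. Python 3.11.15, pandas 2.3.3 and matplotlib 3.10.9 made tables and plots. The motif search read RefSeq promoters.

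The 34 members and all lists were chosen with earlier results of these data known. Any member could be named. Values in every library are given for the called members with the largest change at a high dose (up to 4 per extract) and for HSPA5, XBP1 and HERPUD1; other examples were chosen after their values were seen. Of the other lists, called genes with the largest changes and at least 1 CPM were named (ATF4 and EIF2AK3 were added as the genes that name their list), and of each test between dose effects the 3 members with the smallest p come first.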

Additional observations from a re-analysis of the deposited data

Results flagged for a closer look

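In both pairs of extracts that share a set and differ in dose effect, the difference itself was tested. For high against low dose, Cinnamon and Astragalus differed in 4 members (6.73% of all genes were called positive and 7.67% negative). With 14.4% of all genes called in either direction, that count lay near the background. Cinnamon minus Astragalus was at 0.91 ± 0.08 log2 for HERPUD1, 0.41 ± 0.11 for DNAJB9 and 0.23 ± 0.07 for DERL1. HERPUD1 was at 0.58 log2 under Cinnamon and -0.34 log2 under Astragalus, so the signs were opposite. Sagunja and Samul differed in 6 members (1.43% of all genes positive and 1.46% negative), with Sagunja minus Samul at 0.43 ± 0.08 log2 for HSPA5, 0.48 ± 0.11 for PDIA4 and 0.32 ± 0.08 for HSP90B1. Both counts rest on a fit that includes the deviating low-dose library of Sagunja, and without it they were 15 members (11 positive, 4 negative; 27.8% of all genes called) and 8 members, all positive (1.67% of all genes called positive). A fit of only the groups compared called 7 members for Cinnamon minus Astragalus (19.2% of all genes) and 0 for Sagunja minus Samul (0.0726%).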

How the results depend on the processing

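Counts of called members depended on the spread that the fit shares. Over 113 called member values and all settings, 996 of 1361 comparisons kept their side of the threshold, 364 kept their direction and lost the call, and 1 reversed: CRELD2 at the low dose of Sagunja against vehicle was at -0.0246 log2 without Sagunja low library 1 and at 0.47 log2 without library 3. With scaling by library size only, the median of all genes was at most 0.076 log2 in size in any comparison. The settings below are given where a count moved by over 1.5 times, in the order high, medium and low against vehicle; the cause was not tested.

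With no filter the counts were 6, 1 and 1 for Cnidium, 4 at the high and 1 at the low dose of Rehmannia and 1 between its doses, 1 at the low dose of Cinnamon, 1, 1 and 1 for Astragalus, 3 at the high and 3 at the medium dose of Sagunja, and 3 at the high and 0 at the low dose of Samul and 1 between its doses. In the 27 comparisons this setting called 0.186% to 10.9% of all genes. With library size only (0.04% to 23.0% of all genes) they were 1 and 1 at the medium and low doses of Cnidium, 5, 1 and 1 for Rehmannia and 2 between its doses, 1 at the low dose of Cinnamon, 1 and 1 at the high and medium doses of Astragalus, and 2 at the high dose of Samul. With only the groups compared, which leaves out the deviating Sagunja library except in its own comparisons, they were 23, 10 and 4 for Cnidium and 14 between its doses, 21, 15 and 5 for Rehmannia and 12 between its doses, 10 and 2 at the high and medium doses of Cinnamon, 14 and 17 at the medium and low doses of Astragalus and 0 between its doses, 16 at the high and 0 at the low dose of Sagunja and 0 between its doses, 11, 17 and 15 for Samul and 4 between its doses, 7 for Cinnamon minus Astragalus and 0 for Sagunja minus Samul. The shares of all genes called in that setting were, in the same order, 14.6%, 5.31% and 4.43% for Cnidium and 2.13% between its doses, 15.5%, 11.3% and 8.04% for Rehmannia and 5.07%, 38.9% and 7.41% for Cinnamon, 19.3% and 26.5% for Astragalus and 0.0819%, 41.1% and 0% for Sagunja and 0.14%, 13.8%, 29.1% and 31.0% for Samul and 0.874%, 19.2% for Cinnamon minus Astragalus and 0.0726% for Sagunja minus Samul. With DESeq2 (0.0799% to 23.8% of all genes over the 27 comparisons) they were 6 between doses of Cnidium, 5 at the medium dose of Rehmannia and 7 between its doses, 5 and 2 at the high and medium doses of Cinnamon, 4 and 5 at the medium and low doses of Astragalus, 14 between doses of Sagunja, 5 at the low dose of Samul and 5 between its doses, and 7 for Cinnamon minus Astragalus.

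Over all genes same-numbered libraries did not pair. The correlations of their deviations ran between -0.28 and 0.23, and in no comparison were all over 0.1. The members alone did shift with replicate number in the set of Cnidium and Rehmannia. In library 1, 25, 25 and 24 members lay above the mean of the other replicates at the high, medium and low dose of Cnidium. For Rehmannia these were 27, 28 and 24. In library 3 they were 5, 6 and 8 for Cnidium and 10, 9 and 11 for Rehmannia. With the replicate block the counts that moved were 7 between doses of Rehmannia, 16 between doses of Sagunja, 4 between doses of Samul and 7 for Cinnamon minus Astragalus, and no called member lost its call; 1.12%, 23.1%, 0.919% and 16.4% of all genes were called in these comparisons.

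With 1 library left out, counts ran from 4 to 16, 1 to 4 and 1 to 2 for Cnidium and 3 to 11 between its doses; 5 to 19, 1 to 7 and 1 to 3 for Rehmannia and 2 to 11 between its doses; 2 to 12, 1 to 2 and 1 to 2 for Cinnamon and 4 to 16 between its doses; 1 to 9, 1 to 9 and 1 to 8 for Astragalus and 2 to 3 between its doses; 5 to 12, 3 to 9 and 5 to 25 for Sagunja and 2 to 25 between its doses; and 1 to 16, 0 to 6 and 0 to 9 for Samul and 1 to 9 between its doses. They ran from 3 to 15 for Cinnamon minus Astragalus, 2 to 20 for Sagunja minus Samul and 0 to 0 for Cnidium minus Rehmannia. The share of all genes called moved too, from 0.463% to 5.57% at the high dose of Cnidium, 1.25% to 7.65% of Rehmannia, 17.5% to 35.9% of Cinnamon, 2.31% to 12.7% of Astragalus, 11.6% to 30.9% of Sagunja and 1.14% to 13.4% of Samul, and from 6.49% to 42.8% between doses of Sagunja. The high end came from leaving out Sagunja low library 1, except that for the low dose of Sagunja, its high against low dose and Sagunja minus Samul it came from leaving out library 3 of that dose, which left 25, 25 and 20 (between doses, library 2 also left 25). Where Samul was left with 1 library in a group, that library was assumed to vary like the others. Depth and the number of libraries limit what small changes can be called, and Angelica and Paeonia gave no test; their counts past 1.5-fold were the same with a pseudocount of 0.5.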
